A study of Mus musculus with 8 samples.

Results

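The genes described here are 30 genes of mitosis, chosen by name: cyclins and kinases that drive entry into mitosis, kinetochore, checkpoint and anaphase genes, and spindle, chromosome and cytokinesis genes. Of these, 28 had a probe set on the array, among 12393 genes that could be named in all. Ccnb1, which encodes cyclin B1, and Espl1, which encodes separase, had no probe set under their names in the annotation used and were not analysed here. The 28 genes had 45 probe sets, none of which was annotated with several symbols, and all 28 passed the filter on low signal. Their median level stood at the 80.6th percentile of the 8535 genes tested.

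RNA was measured on Affymetrix mouse expression arrays in FL5.12 cells, a mouse pro-B cell line that depends on interleukin-3, and in splenic tumors that grew from it. The parental group was an FL5.12 line with stable expression of Bfl-1DC and p53DD, grown with medium from WEHI-3B cultures as its source of interleukin-3. The 3 tumor groups came from the spleens of 3 nude mice that had received these cells by intravenous injection, so all groups carried both transfected genes; untransfected cells and normal spleen were not analysed here. The stated question was which expression changes arose during tumorigenesis. Each of the 4 sources was measured on 2 arrays. The labels give neither the age of the mice nor whether the line is 1 clone, and they list the same culture protocol for all samples, so that growth of the tumor cells in culture before RNA isolation is not settled. Nude mice lack a thymus but keep B cells, natural killer cells, granulocytes and macrophages.

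Mitosis begins when cyclin-dependent kinase 1, bound to cyclin B, phosphorylates proteins that condense chromosomes and build the spindle. Kinetochores then attach chromosomes to microtubules, the spindle checkpoint holds back the anaphase-promoting complex until all are attached, and motor proteins and the central spindle complete division of the cell. Transcripts of these genes accumulate in the later part of the cell cycle, so that in a tissue they are commonly read as a mark of dividing cells. In bulk RNA such as this, fewer dividing cells and less RNA per cell cannot be told apart.

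Many mitosis genes share short promoter sequences, among them the cell cycle genes homology region (TTTGAA, or its variant TTTAAA) and the CCAAT box, bound by NF-Y. The stretches below show the 150 bases before the start site of 6 members, chosen as the kinase and the proliferation marker best known of the set (Cdk1, Mki67) and the 4 members with the lowest p in the comparison of tumors with parental cells, picked once those values were known. They come from RefSeq, build GRCm38.p6, and run 5′ to 3′ along the gene, with each of these short sequences, on either strand, in capitals. Cdk1 lies at chr10:69352913-69353062, minus strand. Mki67 lies at chr7:135716380-135716529, minus strand. Kif11 lies at chr19:37376232-37376381, plus strand. The stretch of Kif23 is chr9:61946800-61946949, minus strand. That of Nusap1 is chr2:119618148-119618297, plus strand. That of Ndc80 is chr17:71526858-71527007, minus strand.
Cdk1: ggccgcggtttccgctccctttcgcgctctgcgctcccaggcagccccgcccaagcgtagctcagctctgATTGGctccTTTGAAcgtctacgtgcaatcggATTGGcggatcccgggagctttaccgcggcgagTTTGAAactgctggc
Mki67: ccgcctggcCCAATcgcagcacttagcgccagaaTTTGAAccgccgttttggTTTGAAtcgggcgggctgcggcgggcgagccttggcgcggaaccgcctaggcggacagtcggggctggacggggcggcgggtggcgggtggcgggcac
Kif11: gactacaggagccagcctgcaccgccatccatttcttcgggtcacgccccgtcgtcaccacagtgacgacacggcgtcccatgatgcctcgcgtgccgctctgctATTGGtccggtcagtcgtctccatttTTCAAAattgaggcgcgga
Kif23: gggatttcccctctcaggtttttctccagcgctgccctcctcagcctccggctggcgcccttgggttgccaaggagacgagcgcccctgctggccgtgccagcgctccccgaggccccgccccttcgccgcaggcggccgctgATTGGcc
Nusap1: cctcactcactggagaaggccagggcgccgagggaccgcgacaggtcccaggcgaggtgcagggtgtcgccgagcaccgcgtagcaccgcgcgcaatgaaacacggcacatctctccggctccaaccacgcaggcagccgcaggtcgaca
Ndc80: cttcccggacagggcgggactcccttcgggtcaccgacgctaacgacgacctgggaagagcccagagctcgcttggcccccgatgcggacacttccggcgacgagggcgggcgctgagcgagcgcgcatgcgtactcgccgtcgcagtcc

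The Cdk1 stretch held TTTGAA at 71 and 15 bases before the start and CCAAT, as ATTGG, at 80 and 48 bases before it, all counted to the first base of the match. Mki67 held TTTGAA at 116 and 98 bases before the start, and Kif11 held it on the other strand at 19 bases before. Nusap1 held none of the 3 sequences in its whole 300-base window, which runs from 250 bases before to 50 after the start. The TTTGAA and TTTAAA matches of Ndc80 lay after the start site, outside the stretch shown. The promoter table held 26 of the 30 genes by symbol, with 27 promoters. It had no entry for Aurkb, Kif20a, Tpx2 and Ccna2. TTTGAA occurred in 70.4% of the 27, against 17.9% of all 32851 promoters of that length and 12% of the promoters of genes tested. CCAAT occurred in 81.5%, against 37.4% of all promoters, and CCAAT together with TTTGAA or TTTAAA in 74.1%, against 10.7%. TTTAAA is its own reverse complement, and the 3 motifs were counted separately where they overlapped. Nuf2, Mad2l1 and Nusap1 were the 3 members with no match. These matches describe the letters of the window and not a site of binding.

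Most mitosis genes had a slightly lower mean signal in the tumors than in parental cells, and none passed the test across all genes. Signals below are linear MAS5 intensities, and changes are tumors minus parental cells on the scale of log2(signal + 16), which understates changes of low signals. The main comparison set the means of the 3 tumors against the 2 parental arrays, with limma and p-values adjusted by Benjamini-Hochberg over all 8535 genes. None of the 28 mitosis genes passed an adjusted p of 0.05 in it, where 0.773% of all genes did and 0.176% passed as lower in tumors. The smallest adjusted p among them was 0.166, for Ndc80. At an unadjusted p under 0.05 there were 4, of which 3 were lower in the tumors (Ndc80, Nusap1, Kif11) and 1 was higher (Kif23), against 16.4% of all genes in either direction and 6.62% lower. The changes of 25 of the 28 were below 0 (24 with quantile normalization, 26 with median centring), beside 47.1% of all genes, and their median was -0.19, beside 0.02 over all genes. Without tumor 1 the median was -0.10 and 20 of the 28 were below 0. In 9 of the 28 the 3 tumor means lay below both parental arrays (15.7% of all genes), in 2, Kif23 and Plk1, above both (20%), and in 17 they overlapped with them. On single arrays, 5 genes had all 6 tumor arrays below both parental arrays (8.28% of all genes), namely Nusap1, Kif11, Ndc80, Cenpf and Hmmr. Kif23 alone had all 6 above (10.3%). These values are from the brightest probe set of each gene. The other probe sets of Kif11 also had all tumor arrays below. Those of Nusap1, Cenpf, Hmmr and Kif23 had tumor arrays that overlapped with the parental ones.

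**Figure D1:**
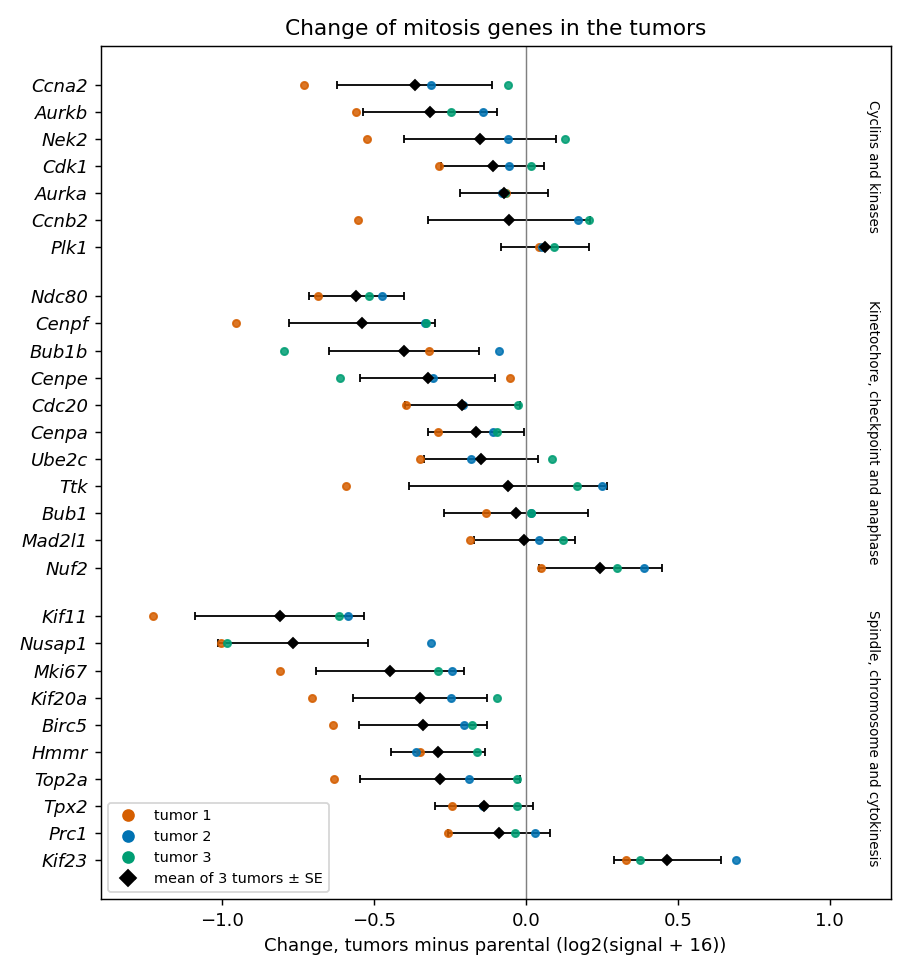
Change of the 28 mitosis genes in the tumors relative to parental cells (log2(signal + 16), horizontal axis), with 1 coloured point per tumor and a black diamond with its standard error for the mean of 3 tumors. Genes are grouped by role, 25 of 28 diamonds lie below 0, and Kif23 and Nuf2 stand furthest above it.

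The array number, 1 or 2 in the labels, bore on these calls. When each array was set against the mean of its source, arrays of the same number deviated together, with correlations of 0.4 to 0.595 in every pair of sources, and the numbers were therefore taken as pairing the arrays. With all 8 arrays and the number as a block, 4 of the 28 were called, with the spread then taken between duplicate arrays and not between mice. They were Kif11 (adjusted p 0.00582), Nusap1 (0.00605), Ndc80 (0.0314) and Kif23 (0.0348), but that fit called 14.5% of all genes. The same 8 arrays without the block called Nusap1 (0.0254) and no other member, and 4.17% of all genes. Comparing only arrays of number 1 gave a median of -0.22 over the 28 with 23 below 0 (48.4% of all genes), and only arrays of number 2 gave -0.20 with 22 below 0 (47.4%).

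Among the 7 measured cyclins and kinases, 6 changes were below 0 and the median was -0.11 (-0.02 without tumor 1 and -0.03 without parental array 2). Ccna2, which encodes cyclin A2 (chromosome 3), had signals of 753 and 531 on the parental arrays and, in the tumors, 483 and 290 (tumor 1), 557 and 461 (tumor 2) and 565 and 653 (tumor 3). Tumor 1 lay below both parental arrays, and tumors 2 and 3 overlapped with them. The change was -0.37 ± 0.26 (SE, n = 3 tumors and 2 parental arrays), with limma's adjusted p at 0.519. Aurkb, the kinase of the chromosomal passenger complex (chromosome 11), gave 485 and 338 in parental cells and, in the tumors, 350 and 207 (tumor 1), 420 and 319 (tumor 2) and 331 and 347 (tumor 3). The groups overlapped, and the change was -0.32 ± 0.22 (adjusted p 0.52). Cdk1, the kinase whose promoter is shown above (chromosome 10), read 956 and 1071 in parental cells and, in the tumors, 744 and 921 (tumor 1), 859 and 1099 (tumor 2) and 837 and 1249 (tumor 3). These too overlapped, with a change of -0.11 ± 0.17 (adjusted p 0.792) and a 95% interval from -0.51 to 0.30.

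The other 4 genes of the group were Ccnb2, Nek2, Aurka and Plk1. Ccnb2, which encodes cyclin B2 (chromosome 9), read 1042 and 1244 in parental cells and, in the tumors, 842 and 706 (tumor 1), 1216 and 1359 (tumor 2) and 1174 and 1481 (tumor 3). Tumor 1 lay below both parental arrays, and tumors 2 and 3 overlapped with them. Its change had the widest range over the tumors in the group, at -0.55 in tumor 1, 0.17 in tumor 2 and 0.21 in tumor 3, with a mean change of -0.06 ± 0.27. Nek2, a kinase of centrosome separation, stood at -0.52 in tumor 1 and at -0.06 and 0.13 in the others. Aurka, the kinase of spindle poles, and Plk1, the polo-like kinase of mitotic entry, had changes of -0.07 ± 0.14 and, for Plk1, 0.06 ± 0.14, which was -0.05 with median centring. In both genes the changes of the 3 tumors differed from one another by less than the duplicate arrays of any tumor did.

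The kinetochore, checkpoint and anaphase genes had a median of -0.16, with 10 of 11 changes below 0. Without parental array 2 that median was -0.39, and without tumor 1 it was -0.10. Ndc80, the outer kinetochore protein that grips microtubules (chromosome 17), gave signals of 189 and 179 on the parental arrays and, in the tumors, 101 and 116 (tumor 1), 133 and 122 (tumor 2) and 110 and 139 (tumor 3). All 6 tumor arrays lay below both parental arrays, and the arrays of tumor 3 overlapped with those of tumors 1 and 2. The ratio of mean signals was 0.654, the change -0.56 ± 0.16 with a 95% interval from -0.93 to -0.19, and limma's p was 0.00983 before and 0.166 after adjustment. Cenpf, a kinetochore protein of late interphase and mitosis (chromosome 1), read 312 and 256 in parental cells and, in the tumors, 164 and 116 (tumor 1), 194 and 252 (tumor 2) and 236 and 208 (tumor 3). Its tumor arrays were all below the parental ones, tumor 1 the furthest, and the change was -0.54 ± 0.24 (adjusted p 0.333). The other probe set of Cenpf gave -0.05 ± 0.13, with 44.0 and 44.8 on the parental arrays and 34.2 to 53.4 on the tumor arrays. Bub1b, which encodes the checkpoint protein BubR1 (chromosome 2), gave 362 and 283 in parental cells and, in the tumors, 325 and 196 (tumor 1), 323 and 278 (tumor 2) and 194 and 162 (tumor 3). Here tumor 3 was the lowest source and the only tumor with both arrays below the parental range, and the change was -0.40 ± 0.25 (adjusted p 0.469).

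Nuf2, the partner of Ndc80 in the same complex, stood at 0.25 ± 0.20, with tumor changes of 0.05, 0.39 and 0.30. Cenpe, a kinetochore motor, had a change of -0.32 ± 0.22, and like Bub1b it was lowest in tumor 3 (-0.61). Changes of the remaining 6 ran from -0.21 for Cdc20, the activator of the anaphase-promoting complex, to -0.01 for Mad2l1, a checkpoint protein that binds Cdc20. Between these came Cenpa, the centromeric histone (-0.16), Ube2c, the ubiquitin-conjugating enzyme of the anaphase-promoting complex (-0.15), Ttk, the checkpoint kinase also called Mps1 (-0.06), and Bub1, a checkpoint kinase (-0.03). Their adjusted p-values lay between 0.621 and 0.992, and every one of them had tumor arrays on both sides of a parental array. Ttk gave 404 and 243 in parental cells and, in the tumors, 268 and 152 (tumor 1), 462 and 306 (tumor 2) and 383 and 328 (tumor 3). Bub1 gave 613 and 365 in parental cells and, in the tumors, 541 and 343 (tumor 1), 534 and 430 (tumor 2) and 537 and 427 (tumor 3). In both genes the first array was the higher one in each source.

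The spindle, chromosome and cytokinesis genes had a median of -0.31, with 9 of 10 changes below 0. It was -0.18 without tumor 1 and -0.27 without parental array 2, where the kinetochore group stood further below 0. Nusap1, a microtubule-binding protein of the spindle (chromosome 2), had signals of 1288 and 1189 on the parental arrays and, in the tumors, 623 and 596 (tumor 1), 1033 and 955 (tumor 2) and 644 and 593 (tumor 3). All tumor arrays lay below both parental arrays, and those of tumors 1 and 3 lay below both arrays of tumor 2. The change was -0.77 ± 0.25 with a 95% interval from -1.35 to -0.18, the ratio of mean signals was 0.598, and limma's p was 0.0182 before and 0.21 after adjustment.

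Kif11, the motor that pushes spindle poles apart (chromosome 19), gave 938 and 609 in parental cells and, in the tumors, 379 and 259 (tumor 1), 575 and 431 (tumor 2) and 594 and 400 (tumor 3). The tumor arrays again lay below both parental arrays, but the highest of them (594) came close to the lower parental array (609). Its change was -0.81 ± 0.28 with an interval from -1.47 to -0.15 (adjusted p 0.231), and its other probe sets gave -0.87 and -0.98. Kif23, a motor of the central spindle needed for cytokinesis (chromosome 9), read 190 and 180 in parental cells and, in the tumors, 243 and 231 (tumor 1), 336 and 283 (tumor 2) and 263 and 228 (tumor 3). It was the one member with every tumor array above both parental arrays, with a ratio of 1.43 and a change of 0.47 ± 0.18 (interval 0.05 to 0.89, adjusted p 0.266). A further probe set of Kif23 gave 0.48, and another, which was above the filter on 0 arrays, gave -0.09.

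Mki67, which encodes the proliferation marker Ki-67 (chromosome 7), had signals of 1863 and 1340 in parental cells and, in the tumors, 1014 and 789 (tumor 1), 1375 and 1291 (tumor 2) and 1399 and 1189 (tumor 3). Tumor 1 lay below both parental arrays, while 1 array each of tumors 2 and 3 exceeded the lower parental array. The change was -0.45 ± 0.24 (adjusted p 0.415). Top2a, the topoisomerase that untangles chromosomes (chromosome 11), gave 2203 and 1434 in parental cells and, in the tumors, 1355 and 962 (tumor 1), 1753 and 1386 (tumor 2) and 1790 and 1698 (tumor 3). The parental arrays of Top2a differed from each other by more than the change of -0.28 ± 0.26 (adjusted p 0.634), and the value without parental array 1 was 0.02.

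Birc5, which encodes survivin of the chromosomal passenger complex, gave 942 and 1180 in parental cells and, in the tumors, 604 and 752 (tumor 1), 861 and 969 (tumor 2) and 831 and 1044 (tumor 3). Only tumor 1 had both arrays below the parental ones, and the change was -0.34 ± 0.21. Kif20a, a motor of the central spindle, gave 280 and 324 in parental cells and, in the tumors, 181 and 177 (tumor 1), 251 and 252 (tumor 2) and 271 and 290 (tumor 3). Tumors 1 and 2 lay below both parental arrays and tumor 3 overlapped with them, with a change of -0.35 ± 0.22. Hmmr, a spindle protein that also binds hyaluronan, had a change of -0.29 ± 0.15 with all 6 tumor arrays, at 302 to 497, below the parental signals of 498 and 499. Its other probe sets gave -0.14, -0.21 and -0.35, and in each of them tumor arrays overlapped with the parental ones. Tpx2, which activates Aurora A on spindle microtubules, had a change of -0.14 ± 0.16, and its other probe set gave -0.52 ± 0.21. Prc1, which bundles central spindle microtubules, had a change of -0.09 ± 0.17 and 0.09 from its other probe set. Of the 12 members with several probe sets, 9 had the same sign in all of them, and Kif23, Prc1 and Top2a did not. Over all 45 probe sets, 39 changes were below 0.

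**Figure D2:**
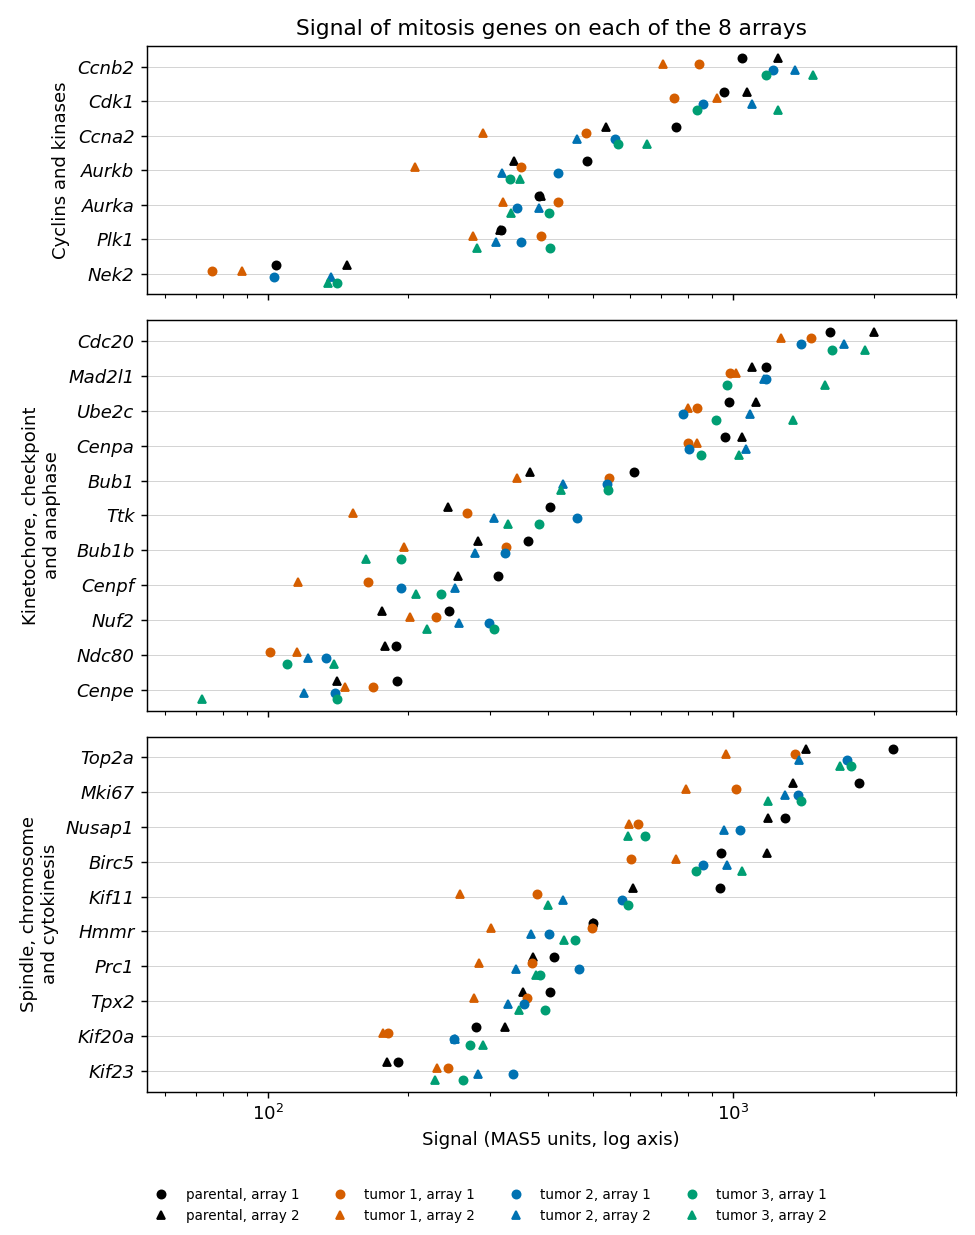
Signal on each of the 8 arrays (linear MAS5 intensity on a log axis) for all 28 measured members, with circles for the first and triangles for the second array of each source. Nusap1, Kif11 and Ndc80 have all tumor points below both parental points, and Kif23 has all of them above.

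Each tumor was also compared with the parental cells in a fit of all 8 arrays. Its spread comes from the duplicate arrays, and the 3 comparisons share the parental arrays. In tumor 1, limma called 1 of the 28 genes at an adjusted p of 0.05, where 3.68% of all genes were called and 1.37% as lower. Tumor 3 also had 1 call (2.55% of all genes, and 0.551% as lower), and tumor 2 had 0 (1.53%). The gene was Nusap1 both times, with a change of -1.0 and an adjusted p of 0.0209 in tumor 1. The corresponding values were -0.98 and 0.0257 for tumor 3, and -0.31 and 0.488 for tumor 2. At an unadjusted p under 0.05 there were 11 members in tumor 1, 2 in tumor 2 and 3 in tumor 3, where 19.8%, 13.5% and 16.2% of all genes passed.

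Nusap1's calls were lost without some single arrays and kept without others. The call in tumor 1 stayed without either array of tumor 2 or of tumor 3. That in tumor 3 stayed without either array of tumor 1. Leaving out an array of another tumor alters only the spread used and not the change. In tumor 1 the adjusted p was 0.117 without parental array 1, 0.0837 without parental array 2, and 0.0598 and 0.0987 without the first and the second array of tumor 1. For tumor 3 the values were 0.14 and 0.106 without a parental array, 0.13 and 0.202 without an array of tumor 3, and 0.0586 without either array of tumor 2. With the mean of Nusap1's probe sets it was 0.0549 in tumor 1 and 0.0543 in tumor 3. With the array number as a block, 8 of the 28 were called in tumor 1, all of them lower (6.99% of all genes): Nusap1, Kif11, Mki67, Kif20a, Birc5, Cenpf, Ndc80 and Top2a. The block gave 1 call in tumor 2, Kif23 as higher (6.22% of all genes called), and 3 in tumor 3, Nusap1, Bub1b and Kif11 as lower (10.6%).

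Over the 28 genes, the median change was -0.37 for tumor 1, -0.14 for tumor 2 and -0.05 for tumor 3, with 25, 20 and 18 genes below 0, beside 48.3%, 45.2% and 48.3% of all genes. The differences among the tumors themselves do not involve the parental arrays. Tumor 1 was the lowest of the 3 tumors in 24 of the 28 genes, as it was in 39.4% of all genes. Bub1b and Cenpe were lowest in tumor 3, and Aurka and Hmmr in tumor 2. The median difference was 0.31 for tumor 2 minus tumor 1 and 0.30 for tumor 3 minus tumor 1, each with 25 of 28 above 0 (53.8% and 51.4% of all genes), and 0.01 for tumor 3 minus tumor 2.

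Limma called 0 of the 28 in any of these 3 pairs, where 0.926%, 1.23% and 0.633% of all genes were called, and 6, 5 and 2 members passed an unadjusted p of 0.05, beside 11.1%, 12.9% and 6.87% of all genes. The F test over the 3 tumors also called 0 members (1.62% of all genes), with 5 at an unadjusted p under 0.05 (12.6%); Nusap1 had an adjusted p of 0.148 and Ccnb2 of 0.195. With the block, the F test called 2, Nusap1 (0.0347) and Ttk (0.0469), where 6.46% of all genes were called. The block also called Nusap1, Ttk and Kif11 as higher in tumor 2 than in tumor 1 (4.49% of all genes), and Kif11, Ttk, Kif20a and Ccnb2 as higher in tumor 3 than in tumor 1 (6.55%).

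Levels also differed between the duplicate arrays. The median of log2(signal + 16) over the 28 was 8.99 and 8.62 on the parental arrays and, in the tumors, 8.71 and 8.25 (tumor 1), 8.91 and 8.61 (tumor 2) and 8.80 and 8.66 (tumor 3). In every source the second array was the lower one, and the 2 parental arrays stood further apart than the median change of the 28. The second array was lower in all 4 sources for 13 of the 28 genes (20.9% of all genes) and higher in all 4 for 3, namely Cdk1, Birc5 and Cenpa (20.7%). Limma, with source and array number in the fit, called Ttk (-0.56), Kif11 (-0.52) and Bub1 (-0.50) as lower on the second arrays (7.86% of all genes). It called 0 as higher (also 7.86%). At an unadjusted p under 0.05, 10 members were lower and 2 higher on the second arrays, beside 17.1% of all genes in each direction. This comparison was chosen after its values were seen. The second array of tumor 1 was the lowest of all 8 arrays in 16 of the 28, against 18.2% of all genes. Other gene lists moved with the number too. Second minus first array, the median was 0.05 in parental cells and 1.69, 0.83 and 0.42 in tumors 1, 2 and 3 for neutrophil and eosinophil markers, and 0.26, 1.08, 1.5 and 1.03 in the same order for macrophage and monocyte markers. For DNA replication genes it was -0.59, -0.57, -0.40 and -0.10. What the array number stands for is not given in the labels, and its part in the results was not tested.

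**Figure D3:**
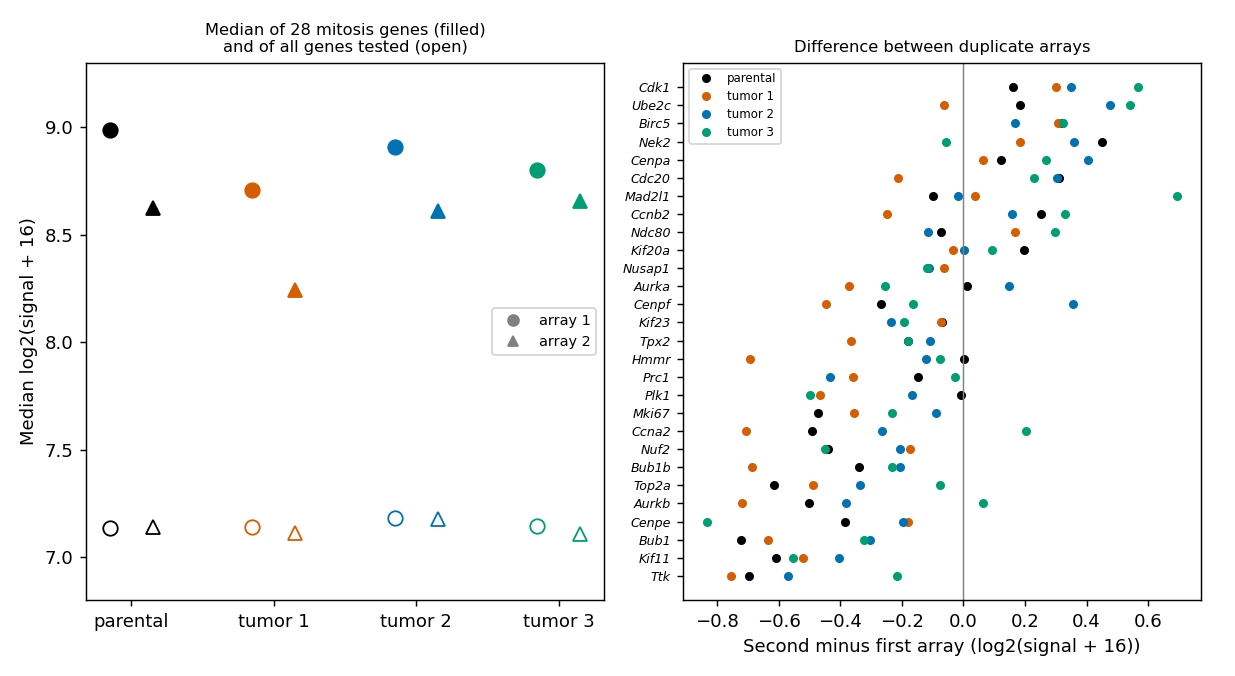
Left, the median of the 28 mitosis genes (filled) and of all genes tested (open) on each array, in log2(signal + 16), with circles for the first and triangles for the second array of a source; right, second minus first array of each source for each member. The medians of the 28 run from 8.25 on the second array of tumor 1 to 8.99 on the first parental array, and the second array is the lower of its pair in each source.

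Some members lie on chromosomes whose genes had a median change away from 0. The median change of the 326 genes tested on chromosome 19, which carries Kif11, was -0.35, and Kif11 had a change of -0.44 with chromosome medians removed. Chromosome 9 carries Kif23, Ccnb2 and Ttk, and its 469 genes had a median of 0.31. With that removed, Kif23 stood at 0.09 rather than 0.47, Ccnb2 at -0.43 rather than -0.06, and Ttk at -0.43 rather than -0.06. Cdc20 lies on chromosome 4 (median 0.22) and went from -0.21 to -0.45. Nusap1 on chromosome 2 (median -0.02) and Ndc80 on chromosome 17 (median 0.05) stood at -0.69 and -0.59. The median of the 28 with chromosome medians removed, an alternative added after the data were seen, was -0.26 with 22 below 0. The part of the chromosome shifts in these values was not tested.

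A list of 104 other mitosis genes, 80 of them measured, had 66 changes below 0 (47.1% of all genes) and a median of -0.21. Limma called 0 of the 80 (0.773% of all genes), with 15 lower and 2 higher at an unadjusted p under 0.05. Of all genes, 16.4% passed that p in either direction and 6.62% as lower. The lowest p-values among the lower ones were those of Nek9, a kinase upstream of Nek6 and Nek7 (-0.79 ± 0.15, adjusted p 0.0814), Ncapg2, a condensin II subunit (-1.33 ± 0.29), Incenp, the scaffold of the chromosomal passenger complex (-0.73 ± 0.17), and Smc3, a cohesin subunit (-0.76 ± 0.19). Nek9 and Ncapg2 lie on chromosome 12, whose genes had a median of -0.46, and Incenp and Smc3 on chromosome 19. The highest-ranked among those above 0 were Arpp19, an inhibitor of the phosphatase PP2A (0.66 ± 0.17, chromosome 9), Melk, a kinase of dividing cells (0.64 ± 0.23, chromosome 4), Cdc26, a subunit of the anaphase-promoting complex (0.38 ± 0.18, chromosome 4), and Zwint, a kinetochore protein (0.28 ± 0.15, chromosome 10). In tumor 1, Ncapg2, Incenp, Smc3, Cep55, Cenph and Shcbp1 were called as lower, 6 of the 80 (1.37% of all genes).

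DNA replication genes, 42 of 45 measured, had 40 changes below 0 (47.1% of all genes) and a median of -0.40. Limma called 0 of them, with 9 at an unadjusted p under 0.05 (16.4% of all genes). Of those 9, Rrm2, the small subunit of ribonucleotide reductase, was the only one above 0 (1.17 ± 0.23, adjusted p 0.0945), while Pola2, a subunit of the primase complex, stood at -1.03 ± 0.23 (adjusted p 0.116). The 21 measured G1 cyclins, their kinases and inhibitors had a median of -0.06 with 12 below 0, beside 47.1% of all genes. Limma called 0 of these 21, with 3 at an unadjusted p under 0.05 (16.4% of all genes), the lowest being those of Cdk4 (-0.46 ± 0.17) and Rb1 (-0.46 ± 0.18). TTTGAA occurred in 40.6% of the promoters of the other mitosis genes and 18.6% of those of the replication genes, against 70.4% for the 27 member promoters.

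Summed neutrophil and eosinophil markers were higher on every tumor array than in parental cells, while the sums of the other marker lists overlapped between the groups. The trimmed mean signal was 150.06 on each of the 8 arrays, which scaling to a common target would fix, so it does not measure how alike they are. The median of log2(signal + 16) over all genes lay between 7.11 and 7.18. Duplicate arrays correlated at 0.951 to 0.972 across genes, which are not independent replicates. The 17 neutrophil and eosinophil markers with a probe set summed to signals of 373 to 871 on the parental arrays and 7803 to 16778 on the tumor arrays. All 14 that were tested had changes above 0, where 47.1% of all genes were below 0. Only 6 of the 17 were above the filter on any parental array. Elane, Ltf, Lcn2, S100a8, S100a9, Cd177, Epx and Prg2 passed it through tumor arrays only, so the filter favoured changes above 0 for them. Limma called 4 of the 14, Epx (7.05 ± 0.19), Mpo (6.19 ± 0.23), Prg2 and Ngp, where 0.773% of all genes were called. Camp and Cxcr2 were above the filter on no array. The macrophage and monocyte markers summed to 243 to 995 on parental and 899 to 3316 on tumor arrays. Lyz2 (2.77 ± 0.15), Ccr2 (5.01 ± 0.42) and Cd14 were called as higher (0.773% of all genes called in either direction). Of the 10 tested, 9 changes were above 0 (47.1% of all genes were below 0), while Csf1r stood at -0.65 ± 1.15. Cd14, Itgam, Ccr2 and Fcgr1 likewise passed the filter through tumor arrays only. Marco, C1qa, C1qc and Cd163 were above the filter on no array, and C1qb on 1 parental array only. The duplicate arrays of Lyz2 lay far apart, at 45.7 and 903 in tumor 1, so that its change was 1.36 on arrays of number 1 and 4.17 on those of number 2, and Cd14 had 1.55 and 4.06. Those of Ngp did too, at 599 and 5263 in tumor 1, with a change of 3.16 on arrays of number 1 and 5.84 on those of number 2. In the fit of all 8 arrays limma's adjusted p for Lyz2 was 0.267 to 0.403 in the 3 tumors, and for Ngp 0.0562 to 0.325. Cd3g, which encodes CD3 gamma of T cells, was called as higher too (4.46 ± 0.25), and Cd3d stood at 4.21 ± 0.71 (adjusted p 0.0691). Changes of the 5 T and natural killer markers tested ran from -3.09 to 4.46, with 3 above 0 and 2 below. Of the 13 with a probe set, 7 were above the filter on no array, Cd3e and Cd4 among them. The summed markers overlapped (738 to 4006 against 971 to 4740). Gzmb made up much of the parental sums, at 576 and 3808 on the parental arrays and 14 to 2021 on the tumor arrays.

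Sums of erythroid markers (1740 to 2865 in parental cells, 791 to 2307 in tumors), mature B cell and plasma cell markers (1648 to 2482 and 2127 to 2533) and stromal and endothelial markers (295 to 336 and 272 to 495) overlapped between the groups. In the main comparison limma called 0 of their genes, with 5 at an unadjusted p under 0.05 (16.4% of all genes). The lowest p-values there were those of Hemgn (-1.89 ± 0.35) and Trim10 (1.24 ± 0.23) among erythroid, Xbp1 (0.39 ± 0.17) and Sdc1 (0.37 ± 0.19) among B and plasma cell, and Col1a2 (0.47 ± 0.19) and Sparc (1.0 ± 0.60) among stromal markers. In the fit of all 8 arrays, limma called Hemgn (-2.13) and Klf1 (-2.01) as lower in tumor 1 (3.68% of all genes called). It called Hemgn as lower and Trim10 as higher in tumor 2 (1.53%), and Ighm (-2.03) as lower in tumor 3 (2.55%). The F test over the 3 tumors called Klf1 and Epor (1.62% of all genes). Of 17 pro-B markers, 6 were above the filter on both parental arrays: Cd79a, Cd79b, Tcf3, Ptprc, Il3ra and Csf2rb. Pax5, Ebf1, Rag1, Rag2, Dntt, Vpreb1, Igll1, Blnk and Il7r were above it on neither, so that the defining markers of the labelled pro-B cell were in part absent. The pro-B sums overlapped (3063 to 4913 and 2727 to 4193), and Cd79b was called as higher in the tumors (1.31 ± 0.19), while Cd79a stood at 0.97 ± 0.25 (adjusted p 0.146). The part of other cell types in the mitosis results was not tested.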

How the data were processed

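RNA from parental FL5.12 cells and 3 splenic tumors was hybridised to 8 arrays, 2 per source. The authors deposited a linear signal intensity for each probe set, made with MAS5 per the submitters' processing notes, with settings not stated there. The number of arrays limits the precision. The 2 parental arrays are not said to come from separate cultures, so their spread may be technical.

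Of 22690 probe sets, 20380 had 1 gene symbol, 691 several and 1555 none, and 64 were controls; no gene was named from several symbols. Names were updated by gene ID (20351 matched) to a RefSeq table of GRCm38.p6, which also gave chromosomes. Probe sets above the 40th percentile of their array on 2 or more arrays were kept, and the brightest on average stood for its gene, leaving 8535 genes. Tests used limma 3.58.1 in R 4.3.3, two-sided, with Benjamini-Hochberg adjustment at 0.05: the mean of each tumor's 2 arrays (3 values) against the 2 parental arrays, and separately all 8 arrays with a mean per source. The scripts were tested on simulated data. Replicate numbers pair the arrays, by the correlations in the report, so fits with the number as a block were run.

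Values on every array are given for the 3 members of each role group with the lowest p, its 2 largest changes, members called in any comparison, Mki67, Top2a and Cdk1. For other mitosis genes, 4 above and 4 below 0 with the lowest p are named, with the 2 lowest p of each marker list and any other marker called. The members and lists were chosen with earlier results of these data known.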

Additional observations from a re-analysis of the deposited data

How the results depend on the processing

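The direction of the median change of the 28 genes held under every alternative run, from -0.29 with median centring, where the median of all genes moved from 0.02 to -0.09, to -0.10 without tumor 1. Leaving out each tumor or parental array in turn gave -0.24 to -0.10. Of the 28 genes, 18 kept their sign in every alternative and 4 were called in any. Over all genes the 66 calls (51 higher, 15 lower) became 33 with a pseudocount of 64, 26 with no filter, 104 with single probe sets, 356 with all 8 arrays and no block, 1239 with all 8 arrays and the replicate block, 5 on arrays of number 1 and 12 on arrays of number 2. Leaving out 1 sample gave 13 to 73, with 17 without parental array 1 and 13 without parental array 2. Median centring gave 48 higher and 27 lower. Members called went from 0 to 1 with all 8 arrays and to 4 with the replicate block. In tumor 1 the 1 called member became 2 with a pseudocount of 64, 0 with the mean of probe sets and 8 with the block, and 0 to 1 without single arrays. In tumor 2, 0 became 1 with the block. In tumor 3, 1 became 0 with the mean of probe sets and 3 with the block, and 0 to 1 without single arrays. The F test's 0 became 2 with the block. The cause of these shifts was not tested.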
